A study of Homo sapiens with 9 samples.

Results

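The genes that write, maintain and remove DNA methylation were followed in RNA-seq libraries of PC-3 cells treated with decitabine alone or together with S-adenosylmethionine (SAM). The members were chosen by name. They are the DNA methyltransferases DNMT1, DNMT3A and DNMT3B, the ubiquitin ligases UHRF1 and UHRF2, the dioxygenases TET1, TET2 and TET3, and the glycosylase TDG, which makes 9 of the 60617 genes listed. All 9 genes had enough counts to be tested among 18532 genes.

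PC-3 is an established line from a bone metastasis of a prostate cancer, and all libraries came from it after 5 days in RPMI1640 medium. The control group (3 libraries) received neither agent, the decitabine group (3 libraries) 1 µM decitabine, and the combination group (3 libraries) 1 µM decitabine with 200 µM SAM. The study's methods name a vehicle of sulfuric acid and ethanol in buffered saline for control cells, while its results call the controls untreated. SAM on its own is not covered, so it was compared only on top of decitabine. The labels do not say whether replicates came from separate cultures, so p-values measure the spread between these libraries, which may be technical.

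Methyl groups on cytosines of CpG dinucleotides are copied onto the new strand after each round of replication by DNMT1, which UHRF1 brings to sites with one methylated strand. DNMT3A and DNMT3B place methyl groups at sites that carried none. TET enzymes oxidize methylcytosine, and TDG cuts out the most oxidized forms, which base excision repair then replaces with cytosine. Decitabine is a deoxycytidine analog that is built into DNA during replication, where it traps DNA methyltransferases. SAM is the methyl donor of all DNA methyltransferases.

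The windows upstream of 3 of these genes show the base composition in which the members differ, and they are given as reference sequence only, since methylation at these sites was not analysed here. DNMT1 is shown as the main protein trapped by decitabine, UHRF1 as the member that differed most between the treatments, and TET1 as the member with the largest decrease. Each line holds the 250 bases before the RefSeq transcription start (GRCh38.p14), 5′ to 3′ on the strand of the gene, with CpG dinucleotides in capitals. The windows lie at chr19:10194954-10195203 (minus strand), chr19:4909251-4909500 (plus strand) and chr10:68560087-68560336 (plus strand).
DNMT1: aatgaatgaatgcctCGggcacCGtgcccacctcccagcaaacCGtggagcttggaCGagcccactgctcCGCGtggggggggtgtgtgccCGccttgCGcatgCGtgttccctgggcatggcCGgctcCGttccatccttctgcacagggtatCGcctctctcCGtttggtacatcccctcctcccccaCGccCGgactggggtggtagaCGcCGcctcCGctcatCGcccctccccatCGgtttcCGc
UHRF1: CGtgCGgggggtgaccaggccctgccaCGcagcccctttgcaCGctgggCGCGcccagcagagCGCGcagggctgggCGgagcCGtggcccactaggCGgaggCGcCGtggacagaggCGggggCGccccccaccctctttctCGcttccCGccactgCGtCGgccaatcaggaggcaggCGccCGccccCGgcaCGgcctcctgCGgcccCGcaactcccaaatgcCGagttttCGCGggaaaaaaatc
TET1: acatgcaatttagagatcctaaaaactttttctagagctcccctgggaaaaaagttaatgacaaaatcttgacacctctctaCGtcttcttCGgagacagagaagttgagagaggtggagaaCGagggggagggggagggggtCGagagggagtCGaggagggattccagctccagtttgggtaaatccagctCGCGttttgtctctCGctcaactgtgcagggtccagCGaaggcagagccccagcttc

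The TET1 window held 9 CpG dinucleotides, compared with 21 upstream of DNMT1 and 28 upstream of UHRF1. Over all 35114 windows of this length the median was 11, so TET1 was close to the middle and UHRF1 had more CpG dinucleotides than 84.1% of windows. UHRF2 and TDG had 23 and 22, DNMT3A 33, TET2 34 and TET3 37. The window listed for DNMT3B held 3, but it belongs to a start 17467 bases from that of the canonical GENCODE transcript. A search for the E2F-type spellings TTTCCCGC, TTTCGCGC, TTTGCCGC and TTTGGCGC on both strands found 1 match in the 9 windows. This was GCGGGAAA, the reverse complement of the first spelling, 14 to 7 bases before the start of UHRF1, and 2.79% of all windows held at least 1 of the spellings.

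The libraries held 21934307 to 22489684 estimated counts each. The PC-3 label was checked with marker genes. KRT8, KRT18, VIM and CD44 were high in the controls, at 120, 426, 1262 and 312 CPM (counts scaled to library size and by the trimmed mean of M values, TMM). KLK3, a marker of luminal prostate cells, had 0 counts in all 9 libraries. All CPM values have this scaling, and changes were tested with the quasi-likelihood test of edgeR with Benjamini-Hochberg adjustment over all genes tested (threshold 0.05). TMM put the median log2 change of all genes at 0.03 under decitabine and 0.05 under the combination, against 0.28 and 0.27 with library size as the only scaling. Of the genes called, 52.7% and 53.4% were higher with TMM, and 70.3% and 69.3% with library size alone.

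With decitabine, 6 of the 9 members fell, 1 rose and 2 did not pass the test. Among all genes tested, 68.8% were called in this comparison, with 32.5% lower and 36.3% higher. The combination gave the same tally against the control, 6 lower and 1 higher, where 67.2% of all genes were called, 31.3% lower and 35.9% higher. Both comparisons share the control libraries. Between the treatments 2 members were higher under the combination, none was lower by edgeR (0 also at an unadjusted p under 0.05, and by DESeq2 or voom and limma) and 7 did not pass, where 15.7% of all genes were called, 7.67% higher and 8.02% lower. The median log2 change of the members was -0.57, -0.49 and 0.05 in these comparisons, and that of all genes tested was 0.03, 0.05 and 0.0021. Groups did not overlap for 8 of the 9 members under decitabine (72.9% of all genes tested), 7 under the combination (71.6%) and 2 between the treatments (34% of genes).

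**Figure D1:**
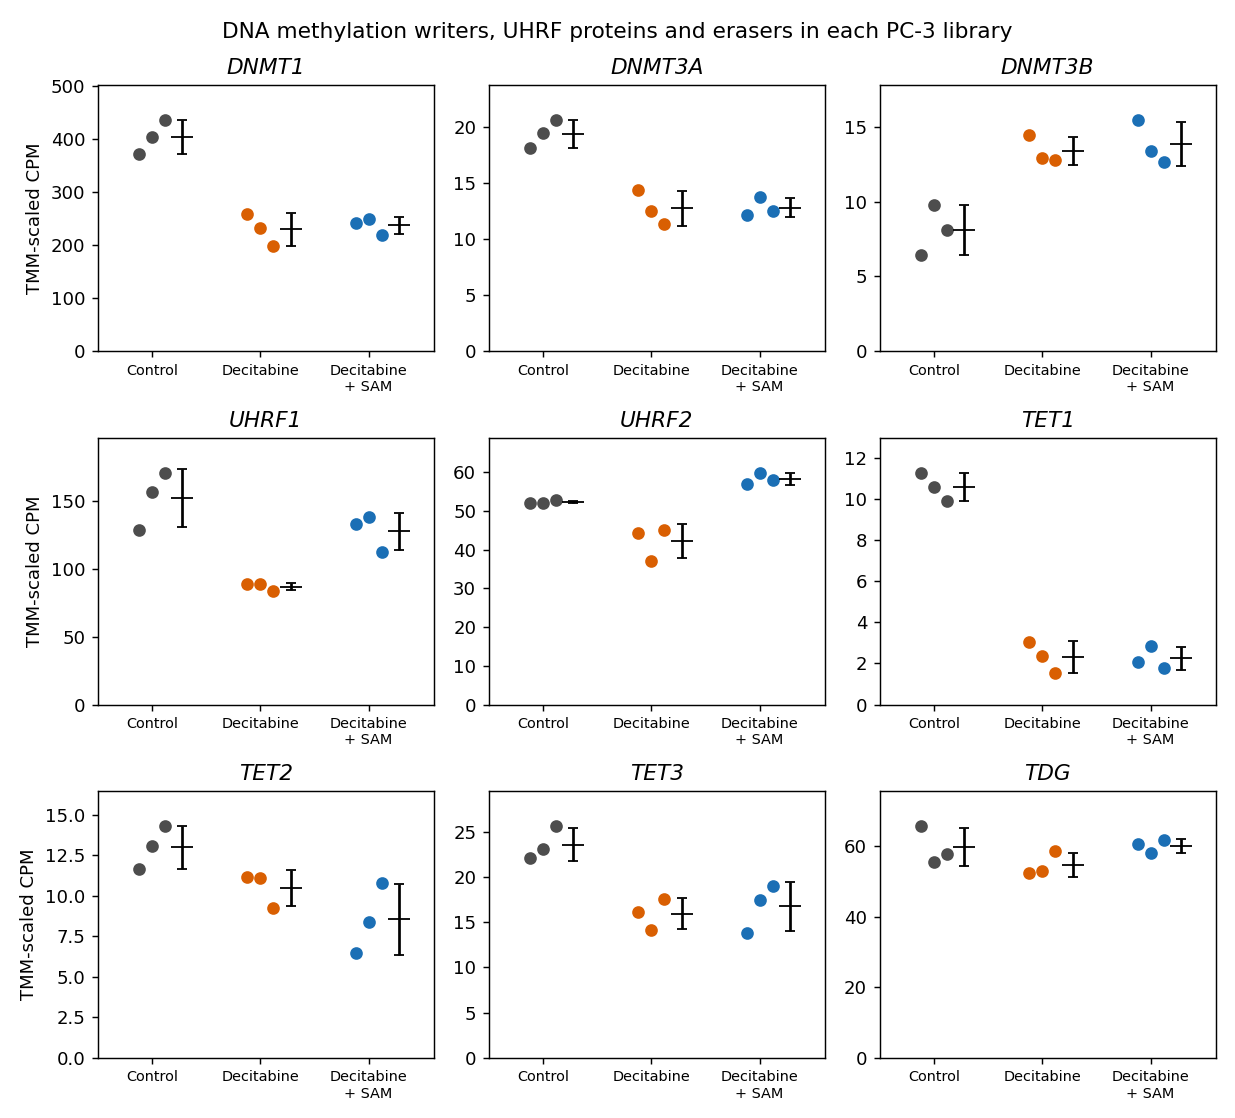
TMM-scaled CPM of the 9 genes in each library, with 3 points per group and the mean ± SD (n = 3) beside them; every vertical axis starts at 0. TET1 drops from about 10.6 to 2.31 and 2.25 CPM, DNMT3B is the member that is higher in both treated groups, and UHRF1 and UHRF2 differ between the treatments.

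DNMT1 (ENSG00000130816, chromosome 19, 10133342 to 10231286, minus strand) fell in both treated groups. Its level was 371, 405 and 437 CPM in the controls, 259, 233 and 198 CPM under decitabine, and 242, 250 and 220 CPM under the combination. All 6 treated libraries lay below all controls, and the treated groups overlapped each other. DNMT1 fell by 43.1% under decitabine (log2 -0.81 ± 0.10 SE, adjusted p = 4e-06) and it fell by 41.3% under the combination (log2 -0.77 ± 0.10 SE, adjusted p = 7.2e-06). Between the treatments the log2 difference was 0.05, with a 95% interval from -0.16 to 0.25 (adjusted p = 0.78). S1PR2 overlaps DNMT1 on the same strand, and its counts amounted to 3.37% of those of DNMT1. These falls are relative to TMM-scaled libraries. With library size alone the log2 change under decitabine was -0.57 (adjusted p = 7.8e-05). In bulk samples fewer cells that express a gene and less RNA per cell cannot be told apart.

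UHRF1 (ENSG00000276043, chromosome 19, 4903080 to 4962154, plus strand), which recognizes hemimethylated DNA and recruits DNMT1, fell under decitabine and was higher under the combination than under decitabine. It was measured at 129, 156 and 170 CPM in the controls, 88.4, 88.4 and 83.6 CPM under decitabine, and 133, 138 and 112 CPM under the combination. The decitabine libraries lay below all others, while the combination libraries overlapped the controls. Decitabine lowered UHRF1 by a log2 change of -0.81 ± 0.10 (SE, adjusted p = 7.8e-06), close in size to that of DNMT1. The combination exceeded decitabine 1.47-fold (log2 0.55 ± 0.10 SE, 95% interval 0.34 to 0.77, adjusted p = 0.0039). This call held in all 17 alternatives, and the log2 difference was 0.50 to 0.64 when single libraries were left out. Only 4.47% of genes tested had a larger increase between the treatments. Against the control, the combination value was -0.25 (95% interval -0.47 to -0.04, adjusted p = 0.039), and this call rests on the settings. It was lost with library size alone (-0.03, adjusted p = 0.78), voom and limma (adjusted p = 0.051), a minimum mean of 10 counts (adjusted p = 0.05) or the 6 libraries alone (adjusted p = 0.078). It was also lost without control replicate 2 (adjusted p = 0.097), control replicate 3 (adjusted p = 0.17) or combination replicate 3 (adjusted p = 0.15).

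UHRF2 (ENSG00000147854, chromosome 9, 6413151 to 6507054, plus strand), a relative of UHRF1 that does not take over its role in maintenance, also differed between the treatments. It stood at 52.1, 52.0 and 52.7 CPM in the controls, 44.2, 37.1 and 45.1 CPM under decitabine, and 56.8, 59.8 and 58.1 CPM under the combination. None of the 3 groups overlapped. The combination was 1.38-fold above decitabine (log2 0.47 ± 0.08 SE, 95% interval 0.30 to 0.64, adjusted p = 0.0026), a call that also held in all 17 alternatives. UHRF2 fell by 19.4% under decitabine (log2 -0.31 ± 0.08 SE, adjusted p = 0.0032), but with library size alone the value was -0.06 (adjusted p = 0.51). The combination against the control gave 0.16 (95% interval -0.01 to 0.33, adjusted p = 0.097). This passed the test with library size alone (0.38, adjusted p = 0.001) and with the 6 libraries alone (0.17, adjusted p = 0.036).

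**Figure D2:**
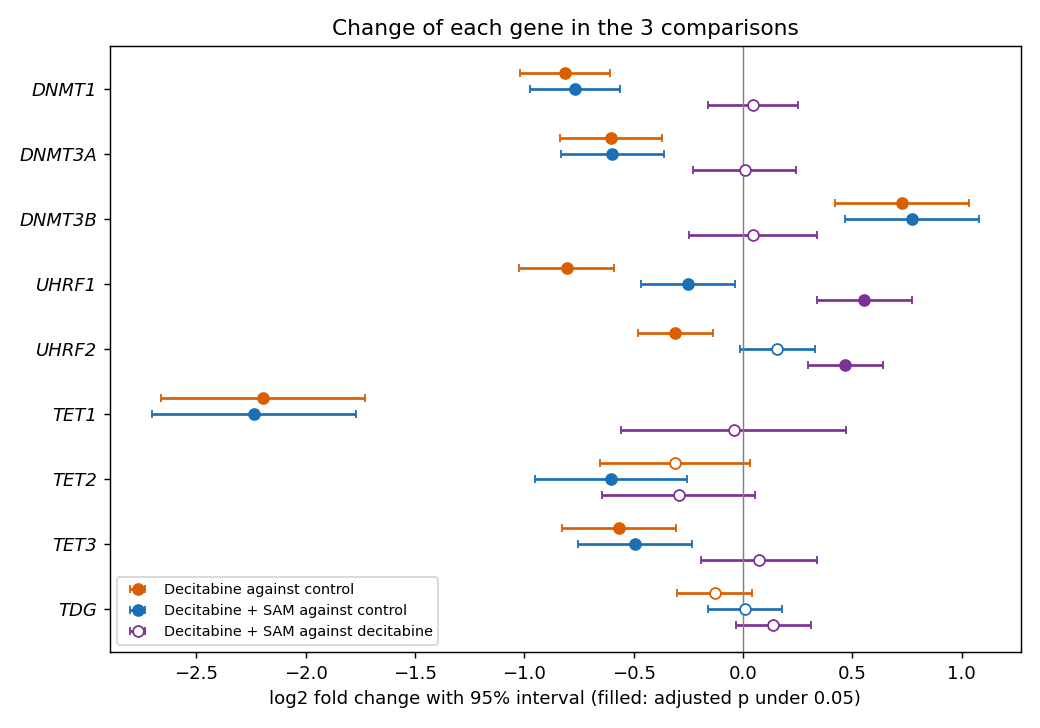
Log2 fold change of each gene with its 95% interval in the 3 comparisons; filled points have an adjusted p under 0.05. For DNMT1, DNMT3A, DNMT3B and TET1 the intervals against the control nearly coincide and that between the treatments spans 0, whereas for UHRF1 and UHRF2 the interval between the treatments lies above 0.

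The 2 methyltransferases that act on unmethylated sites moved in opposite directions. DNMT3A (ENSG00000119772, chromosome 2, 25227855 to 25342590, minus strand) was measured at 18.1, 19.4 and 20.6 CPM in the controls, 14.4, 12.5 and 11.3 CPM under decitabine, and 12.2, 13.7 and 12.5 CPM under the combination. All treated libraries were below the controls. Its log2 change was -0.60 ± 0.11 (SE) with either treatment (adjusted p = 1.9e-04 under decitabine and 2.3e-04 under the combination). The difference between the treatments was 0.01, with a 95% interval from -0.23 to 0.24 (adjusted p = 0.97).

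DNMT3B (ENSG00000088305, chromosome 20, 32762385 to 32809359, plus strand) was the member that rose. It stood at 6.41, 9.76 and 8.10 CPM in the controls, or 129 to 195 counts. With decitabine it reached 14.5, 12.9 and 12.7 CPM, and under the combination 15.5, 13.4 and 12.6 CPM. The treated libraries all exceeded the highest control. DNMT3B rose 1.65-fold under decitabine (log2 0.73 ± 0.14 SE, adjusted p = 4.2e-04) and 1.71-fold under the combination (log2 0.77 ± 0.14 SE, adjusted p = 2.6e-04). Increases larger than these were seen for 27.4% and 25.8% of genes tested. The treatments differed by 0.05 (95% interval -0.25 to 0.34, adjusted p = 0.85).

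Within each library, ratios of counts describe the makeup of the methyltransferases without depending on the scaling of libraries. DNMT3A had 2.82, 1.99 and 2.54 times the counts of DNMT3B in the controls. This ratio was 0.997, 0.967 and 0.891 under decitabine and 0.789, 1.03 and 0.993 under the combination, below all controls. DNMT1 had 13.9 to 15.2 times the summed counts of DNMT3A and DNMT3B in the controls, 8.22 to 9.16 times under decitabine and 8.73 to 9.22 times under the combination. UHRF1 had 0.346 to 0.391 of the counts of DNMT1 in the controls and 0.342 to 0.422 under decitabine, and these groups overlapped. With the combination the ratio was 0.550, 0.551 and 0.508, above both other groups. In each of these non-overlapping cases the exact permutation test (two-sided, 3 against 3 libraries) gave p = 0.1, the smallest it allows, or 0.175 after adjustment over 21 tests. Such a test cannot pass the threshold.

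**Figure D3:**
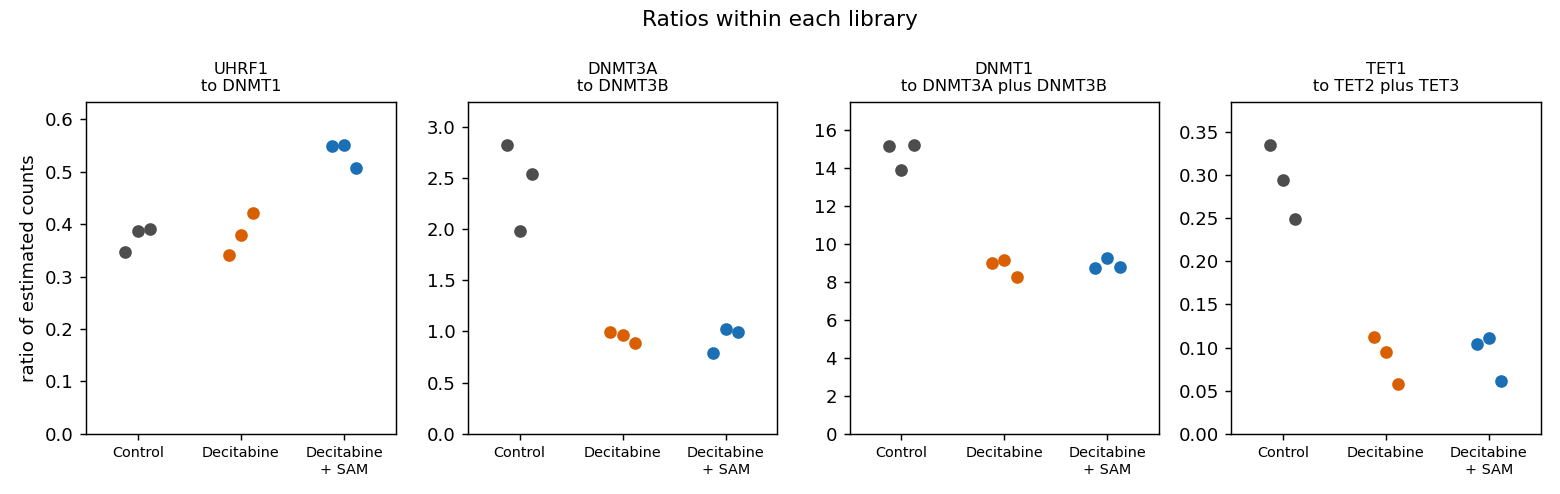
Ratios of estimated counts within each library, 1 point per library and 3 per group, on axes that start at 0. UHRF1 to DNMT1 is highest in the 3 combination libraries (0.508 to 0.551), while the other ratios are lower in both treated groups than in the controls.

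TET1 (ENSG00000138336, chromosome 10, 68560337 to 68694487, plus strand) showed the largest change of all members. The controls had 227, 212 and 201 counts, the decitabine libraries 72, 56 and 36, and the combination libraries 48, 65 and 42. In CPM these were 11.3, 10.6 and 9.92, then 3.04, 2.36 and 1.52, and then 2.09, 2.86 and 1.79. The lowest control was more than 3 times as high as the highest treated library. TET1 fell by 78.2% under decitabine (log2 -2.20 ± 0.22 SE, adjusted p = 6.5e-07) and it fell by 78.8% under the combination (log2 -2.24 ± 0.22 SE, adjusted p = 6e-07). Only 0.378% and 0.41% of genes tested had a lower log2 change. The interval between the treatments was wide, from -0.56 to 0.47 around -0.04 (adjusted p = 0.92).

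TET2 (ENSG00000168769, chromosome 4, 105145875 to 105279816, plus strand) moved less. It was measured at 11.7, 13.1 and 14.3 CPM in the controls, 11.2, 11.1 and 9.23 CPM under decitabine, and 6.44, 8.40 and 10.8 CPM under the combination. The treated groups overlapped each other, and the combination libraries were spread over the widest range. With the combination TET2 fell by 34.2% (log2 -0.60 ± 0.16 SE, adjusted p = 0.0044), but with library size alone the value was -0.38 (adjusted p = 0.061). The value under decitabine was -0.31 (95% interval -0.65 to 0.03, adjusted p = 0.10). It passed the test without a filter on low counts (adjusted p = 0.024) and without combination replicate 1 (adjusted p = 0.045) or 3 (adjusted p = 0.044). Between the treatments the difference of -0.29 (adjusted p = 0.24) became -0.50 (adjusted p = 0.032) without combination replicate 3.

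TET3 (ENSG00000187605, chromosome 2, 73984910 to 74108176, plus strand) fell in both groups. It had 444, 461 and 519 counts in the controls, 380, 335 and 414 under decitabine, and 316, 396 and 446 under the combination. Scaled to CPM, the controls averaged 23.6 ± 1.84 (SD, n = 3) and the treated groups 15.9 ± 1.71 and 16.7 ± 2.69, and every treated library was below every control. Its log2 change was -0.57 ± 0.12 (SE, adjusted p = 8.5e-04) under decitabine and -0.49 ± 0.12 (SE, adjusted p = 0.0024) under the combination. The latter was -0.27 (adjusted p = 0.076) with library size alone. An RNA gene without a symbol (ENSG00000235499) that lies within TET3 had 2.69% of its counts.

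Among the TET transcripts, TET1 had 0.249 to 0.335 of the summed counts of TET2 and TET3 in the controls, 0.0577 to 0.113 under decitabine and 0.0607 to 0.112 under the combination. The sum of the 3 TET genes relative to the sum of the 3 methyltransferases had a mean of 0.110 in the controls, 0.113 under decitabine and 0.103 under the combination, and here the groups overlapped (exact permutation test, two-sided, p = 1 and 0.7 against the control).

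TDG (ENSG00000139372, chromosome 12, 103965822 to 103988874, plus strand), which acts after the TET enzymes, was the member with the smallest differences from the control under TMM scaling. Its level ranged from 55.5 to 65.6 CPM in the controls, 52.3 to 58.4 CPM under decitabine and 57.9 to 61.7 CPM under the combination, and all groups overlapped. The log2 values were -0.13 under decitabine (95% interval -0.30 to 0.04, adjusted p = 0.16), 0.01 under the combination (-0.16 to 0.18, adjusted p = 0.93) and 0.14 between the treatments (-0.03 to 0.31, adjusted p = 0.26). The sign depends on the scaling, because with library size alone the first was 0.12 and the second 0.23 (adjusted p = 0.024). Relative to the 3 TET genes, TDG had a mean ratio of 1.26 in the controls, 1.90 under decitabine and 2.20 under the combination (exact permutation test, two-sided, p = 0.1 each, the smallest possible).

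Levels of different genes were set side by side per kilobase of the canonical transcript. In the controls DNMT1 came first with 76.6 ± 6.20 CPM per kilobase (SD, n = 3), followed by UHRF1 with 38.9 ± 5.47, TDG with 18.7 ± 1.67 and UHRF2 with 14.6 ± 0.102. The rest lay far lower, with DNMT3A at 2.06, TET3 at 1.96, DNMT3B at 1.87, TET2 at 1.36 and TET1 at 1.10. Libraries of DNMT3A, TET3 and DNMT3B overlapped, as did those of DNMT3B and TET2, so these orders are not resolved. With decitabine DNMT3B moved up to the fifth place with 3.08 ± 0.218 CPM per kilobase, above DNMT3A (1.35), TET3 (1.32), TET2 (1.10) and TET1 (0.240), and its libraries overlapped none of these. The combination gave 3.19 ± 0.340 for DNMT3B and 0.234 ± 0.0575 for TET1. The order depends on the length used, at the top and further down. Over the union of all exons, UHRF1 (29.5) stood above DNMT1 (26.3) in the controls. With that length TET3 (1.82) also stood above DNMT3A (1.41) in the controls, and TET1 (1.10) above TET2 (0.79).

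Partners of maintenance methylation fell as a list. The list held the chromatin remodeler HELLS and its partner CDCA7, the sliding clamp PCNA and its binding protein PCLAF, the DNA ligase LIG1, the deubiquitinase USP7 and the histone methyltransferases EHMT1, EHMT2 and SUV39H1. All 9 fell with either treatment, where 32.5% of all genes were lower under decitabine and 31.3% under the combination. Their median log2 change was -0.93 and -0.70, although 6 of 9 fell under the combination under library size alone. SUV39H1 (-1.43, adjusted p = 9.2e-09) and CDCA7 (-1.36, adjusted p = 2.2e-06) fell most under decitabine. CDCA7 (-1.25) and LIG1 (-1.21), which joins the fragments of the lagging strand, fell most under the combination. Between the treatments PCLAF (0.43, adjusted p = 0.013), HELLS (0.34, adjusted p = 0.042) and SUV39H1 (0.33, adjusted p = 0.026) were higher under the combination. This count of 3 was 2 without control replicate 2, control replicate 3 or decitabine replicate 1, and 1 without decitabine replicate 3. It was 0 without decitabine replicate 2, combination replicate 1 or combination replicate 2, and 5 without combination replicate 3.

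DNMT1, UHRF1 and most of these partners are transcribed mainly in cycling cells, and genes of DNA replication and mitosis moved in the same comparisons. Beside the same shares of all genes lower (32.5% and 31.3%), 17 of 18 replication genes fell under decitabine (median log2 -0.83) and 14 under the combination (median -0.61), where E2F1 (0.23, adjusted p = 0.0072) rose. PRIM1, a subunit of primase, fell by 2.13 on the log2 scale under decitabine and it fell by 1.80 under the combination. All 12 mitosis genes fell under decitabine (median -0.81) and 8 under the combination (median -0.43). PLK1, a mitotic kinase, fell by 1.69 and by 0.95. Under library size alone these counts were 13 and 13 of 18 replication genes and 11 and 4 of 12 mitosis genes.

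Between the treatments, 8 of 12 mitosis genes were higher under the combination (median 0.43) and none was lower, against 7.67% higher and 8.02% lower among all genes. They included PLK1 (0.74, adjusted p = 0.0012), BIRC5 (0.69, adjusted p = 0.0010) and CDK1 (0.51, adjusted p = 0.0021), and the count was 5 without combination replicate 2. Of the 18 replication genes 5 were higher, among them CCNE2 (0.54, adjusted p = 0.0065) and E2F1 (0.40, adjusted p = 0.0025), and POLA1 (-0.39, adjusted p = 0.023) was lower, a call lost without decitabine replicate 1 (adjusted p = 0.09), decitabine replicate 2 (adjusted p = 0.09) or combination replicate 2 (adjusted p = 0.12). This count of 5 was 2 without decitabine replicate 2, combination replicate 1 or combination replicate 2, and 8 without combination replicate 3. The part of cycling cells in the values of DNMT1, UHRF1 and UHRF2 was not tested.

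**Figure D4:**
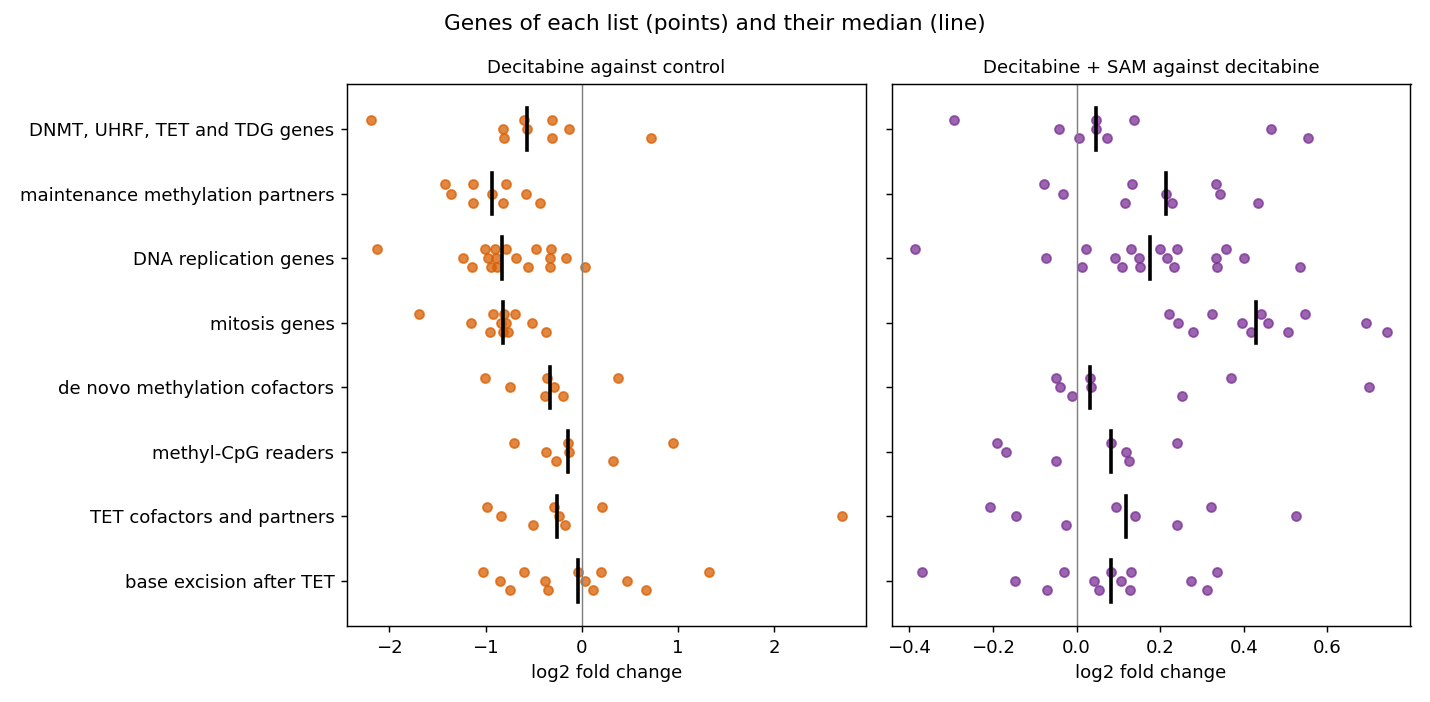
Log2 fold change of the genes of each list (points) with the list's median (line), for decitabine against control (left) and the combination against decitabine (right); ZFP57, which had no counts in the controls, is left out of the left panel. Maintenance partners, replication and mitosis genes lie almost entirely below 0 on the left, with medians of -0.93, -0.83 and -0.81, and the mitosis genes lie above 0 on the right, with a median of 0.43.

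Cofactors of de novo methylation were mixed. DNMT3L, the catalytically inactive partner of DNMT3A and DNMT3B, had at most 2 counts in any library and was not tested. Of the 8 genes tested, 5 fell and 2 rose under decitabine (32.5% and 36.3% of all genes), and 4 fell and 2 rose under the combination (31.3% and 35.9%). ZFP57, one of the 2 that rose and named after its values were seen, had 0 counts in the controls and was tested only because of its counts in treated cells. With a minimum mean of 10 counts, 7 were tested and 1 rose in each comparison. TRIM28, a corepressor of zinc finger proteins, fell by 0.97 on the log2 scale under the combination (adjusted p = 5.7e-08), and the histone methyltransferase NSD2 fell by 0.75 and by 0.76. KDM1B, a histone demethylase, rose by 0.38 (adjusted p = 7.5e-04) and 0.33 (adjusted p = 0.0022). With library size alone the decitabine counts were 2 lower and 2 higher, and those of the combination 2 lower and 4 higher. QSER1 (0.37, adjusted p = 0.011), which protects regulatory regions from methylation, and SETD2 (0.25, past the threshold in only 5 of 17 alternatives) were higher under the combination than under decitabine, although QSER1 lost the call without decitabine replicate 2 (adjusted p = 0.05) or combination replicate 2 (adjusted p = 0.055).

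Readers of methylated CpG did not move in one direction. With decitabine 2 of 7 rose and 3 fell (36.3% and 32.5% of all genes), and likewise under the combination (35.9% and 31.3%; 1 fell with either treatment under library size alone). ZBTB38 rose by 0.95 (adjusted p = 1.5e-07) and 1.07 (adjusted p = 5e-08), and MBD1 by 0.33 and 0.41. Between the treatments 0 of the 7 passed edgeR's test, with 1 higher and 1 lower at an unadjusted p under 0.05, and 0 passed by DESeq2 or by voom and limma. Without a filter or with the replicate block, 1 passed as higher. Without decitabine replicate 3 the count was 1 lower, and without combination replicate 3 it was 1 higher and 1 lower.

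Genes that work beside or after the TET enzymes were mixed as well. Among 8 cofactors and partners of TET, 4 fell and 1 rose under decitabine (32.5% and 36.3% of all genes), and 3 fell and 1 rose under the combination (31.3% and 35.9%). CXXC4, the 1 that rose and likewise named after its values were seen, had 0, 2 and 2 counts in the controls and was tested only because of its counts in treated cells. With a minimum mean of 10 counts, or with only the 6 libraries compared, 7 were tested and 0 rose against the control by edgeR. With library size alone, 3 fell and 2 rose under decitabine, and 3 fell and 3 rose under the combination. IDH1, which makes the cosubstrate of the TET enzymes, fell by 0.99 and by 0.89 on the log2 scale, and DCAF1 by 0.50 and by 0.53. D2HGDH (-0.84 and -0.52 against the control), which clears an inhibitor of TET enzymes, and CXXC5 (0.52, adjusted p = 0.034) were higher under the combination than under decitabine. Both calls were lost without decitabine replicate 2, combination replicate 1 or combination replicate 2 (adjusted p = 0.087 to 0.14), and that of CXXC5 also without decitabine replicate 1 (adjusted p = 0.12). Both were also lost with only the 6 libraries compared, where 0 of the 8 genes passed between the treatments. Of 13 base excision genes tested, 6 fell and 3 rose under decitabine (32.5% and 36.3% of all genes). GADD45A, 1 of these 3, had overlapping groups (0.48, adjusted p = 0.044 by edgeR). Its call held in only 3 of the 9 fits that left out 1 library. With the combination 6 fell and 4 rose (31.3% and 35.9%). Under library size alone 4 were lower and 6 higher in both. NEIL1, 1 of those that rose, was likewise named after its values were seen. It had 10, 9 and 13 counts in the controls and passed the filter only because of its counts in treated cells. LIG3 (-1.03 and -0.94), XRCC1 (-0.85 under decitabine) and APEX1 (-0.78 under the combination), which act in the repair of an abasic site, were among the decreases. DNA polymerase beta (POLB) rose by 0.67 (adjusted p = 8.3e-06) and 0.72 (adjusted p = 4.2e-06). Between the treatments NEIL2 (0.31, adjusted p = 0.036), a glycosylase, was higher under the combination, a call lost without control replicate 2, decitabine replicate 1 or 3, or combination replicate 1 or 2 (adjusted p = 0.057 to 0.16). It was also lost with only the 6 libraries compared, where 0 of the 13 genes passed between the treatments.

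Genes with the most similar course over the 9 libraries were listed by the root mean square difference of centred log2 CPM, among 13631 candidates with a mean of at least 50 counts. For DNMT1 these were ZNF254 (0.054) and STXBP5 (0.056), and for DNMT3A they were CASK (0.036), MSH6 (0.055) and SYNJ2 (0.059). UHRF1 was closest to TONSL (0.062) and HSPA4L (0.065), and UHRF2 to PRPF4B (0.067) and GEMIN7 (0.072). The nearest gene was at a greater distance for DNMT3B (TNS4, 0.116) and TET1 (SULF2, 0.157). SULF2 fell by 2.17 and by 2.13 on the log2 scale. For TET2 and TET3 the nearest genes were EPHA5 (0.066) and ASXL2 (0.077). The median distance of all candidates was 0.33 to 1.05, depending on the member.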

How the data were processed

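RNA-seq covered 9 PC-3 libraries in 3 groups of 3 (control, decitabine, and the combination of decitabine and SAM). Groups and replicate numbers were taken from the labels and doses from the study's methods. According to the submitters' processing notes, reads were trimmed with Trim Galore 0.6.4, quantified with kallisto and related to GRCh38.p13. Each deposited count table lists estimated counts by Ensembl gene, which the authors left without normalization. The deposited log2 CPM were not used. Counts were rounded, and genes that passed filterByExpr (minimum count 10) entered edgeR 4.0.16 (R 4.3.3), with TMM scaling, robust dispersions, the quasi-likelihood test, 1 mean per group over all 9 libraries and Benjamini-Hochberg adjustment. The study's methods name voom and limma, which were run as an alternative (limma 3.58.1), as was DESeq2 1.42.0. Ratios were tested by exact permutation on log2 values with 0.5 added to the counts. The counting floor was 3 counts over the libraries of a group. The members, the gene lists and the tests were chosen with earlier results of these data known.

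Of each list, genes that averaged 50 counts or more in some group were named if they were called between the treatments or had one of the 2 largest increases or decreases against the control. Not every gene that met this rule is printed, and some results on single genes are left out. The 3 genes nearest to each member were taken only for members called against the control. Libraries within a group differed by a chi-square of 5.86 to 23.5 per degree of freedom over genes with at least 20 counts, so no library repeated another. The fits were tested on simulated data. Promoter windows came from RefSeq, and gene positions and transcript lengths from GENCODE on GRCh38. Python 3.11.15, pandas 2.3.3 and matplotlib 3.10.9 were also used.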

Additional observations from a re-analysis of the deposited data

How the results depend on the processing

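The changes of the 9 members were recomputed under 17 alternatives in 3 comparisons. Of the 459 values, 423 kept direction and call. None of the 19 that changed sign belonged to a call in either fit. With library size alone, 3 members were higher and 3 lower with the combination than in the controls, and with the 6 libraries alone 2 were higher. Leaving out single libraries gave 6 to 7 lower members with decitabine and 5 to 6 with the combination, and 0 to 1 between the treatments. Genes called between the treatments numbered 861 to 4063, with 1783 without decitabine replicate 1, 1004 without decitabine replicate 2, 1364 without combination replicate 1 and 861 without combination replicate 2, compared with 2908 in all.

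Values that changed sign were those of TDG with library size alone (0.12 with decitabine) and without a filter (-0.022 with the combination), and of DNMT3A between the treatments with DESeq2 size factors (-0.0021), library size alone (-0.02) and DESeq2 (-0.0022). Leaving out single libraries gave -0.049 to 0.075 for TDG with the combination. Between the treatments it gave -0.051 to 0.14 for DNMT1, -0.071 to 0.10 for DNMT3A, -0.045 to 0.11 for DNMT3B, -0.27 to 0.21 for TET1 and -0.028 to 0.19 for TET3. The cause was not tested.

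Whether the replicate numbers pair the samples is not resolved. After centring on group means, correlations of same-numbered libraries were -0.017 to 0.069 between the controls and either treated group. Between decitabine and the combination they were 0.233, 0.036 and 0.229, and those of differently numbered libraries were -0.22 to 0.014. With the replicate block no member's call changed, and 12945, 12673 and 3656 genes were called with decitabine, with the combination and between the treatments. GADD45A (0.48 with decitabine, adjusted p = 0.044 by edgeR) lost its call with the block (0.46, adjusted p = 0.12). It was called in only 3 of the 9 fits that left out 1 library. Other named genes of the lists kept direction in all fits. All 147 recomputed ratio differences moved by less than 1 SD, and 27 of 54 levels per kilobase moved by more with other transcript lengths. At 36 to 72 counts per treated library, TET1 gave the widest interval between the treatments.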

Other observations

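Transcripts that were nearly absent in the controls had more counts in treated cells in 2 of the lists. Both were below the count needed to be named by the rule, were chosen after their values were seen, and were tested only because of their counts in treated cells, so no test is given. ZFP57, a zinc finger protein that keeps methylation at imprinted regions, had 0 counts in the 3 controls, 14, 11 and 9 with decitabine and 17, 21 and 16 with the combination. Against a floor of 3 counts over the control group it was at least 9.64-fold higher with decitabine and at least 15.7-fold higher with the combination. CXXC4, a CpG-binding partner of TET2, had 0, 2 and 2 counts in the controls, 14, 8 and 11 with decitabine and 8, 14 and 7 with the combination. At these counts small differences between the treatments were not detectable for ZFP57 and CXXC4.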
